A study of Mus musculus with 2 samples.

Results

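The 10 genes described here are heat shock proteins and chaperones, the proteins that help other proteins fold: Hspa8, Hspa1a, Hspa1b and Hsph1 of the HSP70 system, their J-domain partners Dnaja1 and Dnajb1, the cytosolic HSP90 proteins Hsp90aa1 and Hsp90ab1, and the mitochondrial pair Hspd1 and Hspe1. They were taken by symbol, 10 of 16098 genes in a table of transcript counts of single regulatory T (Treg) cells, and all 10 had counts in both libraries. Treg cells are the CD4 T cells that restrain immune responses and express the transcription factor Foxp3. Control Treg cells came from Foxp3DTR-GFP/y Cd4creERT2 mice, whose Foxp3 allele also encodes the diphtheria toxin receptor and GFP, with 5 mice pooled into 1 library. Rescued Treg cells came from Foxp3LSL/y Cd4creERT2 mice, in which Foxp3 is blocked by a loxP-flanked Thy1.1-STOP cassette until Cre removes it, with 4 mice pooled into 1 library. All mice were C57BL/6 males carrying the tamoxifen-inducible Cre driven from Cd4 and a tdTomato recombination reporter, were given 4-hydroxytamoxifen on postnatal day 14 and were 7 months old, and the cells were sorted from spleen and lymph node as TCRβ+CD4+ cells positive for the Foxp3 (GFP) reporter and negative for Thy1.1. The comparison asks how chaperone transcripts in long-lived rescued Treg cells stood against those in control Treg cells.

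Chaperones of the HSP70 and HSP90 families bind unfolded proteins and release them through cycles of ATP hydrolysis, steered by J-domain proteins and nucleotide exchange factors. Some, such as Hspa8 and Hsp90ab1, are made in nearly all cells at all times, whereas others, such as Hspa1a and Hspa1b, are known for strong induction by heat and other stress through the factor Hsf1, which binds heat shock elements built from inverted GAA units. T cells also raise chaperone and mitochondrial folding transcripts when they grow after activation, and handling of tissue can induce heat shock and immediate early genes such as Fos.

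The promoter letters are shown first because heat shock elements are the textbook mark of stress-induced members. RefSeq windows on GRCm38 were found for 7 of the 10 genes, and none was used for Hspa8, Hsp90aa1 and Hsp90ab1. In the 250 bases before each start site, the paired unit GAANNTTC or TTCNNGAA (each reads the same on both strands, and neighbouring matches may overlap) was found in 6 of these 7 genes, against 14.55% of the 27025 genes with a window. Dnajb1 had no match in either of its windows. Matches are in capitals in the stretches below, each written on the gene's own strand.
Hspa1b: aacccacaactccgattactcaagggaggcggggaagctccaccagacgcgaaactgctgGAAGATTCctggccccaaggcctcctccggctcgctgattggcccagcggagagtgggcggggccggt
Hspe1: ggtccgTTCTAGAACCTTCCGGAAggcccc
Dnaja1: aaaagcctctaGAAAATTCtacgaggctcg
Hsph1: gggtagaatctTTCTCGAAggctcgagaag
The Hspa1b stretch (chr17:34959275-34959402, minus strand) ends 37 bases before the start site, and the same letters stand at the same place before Hspa1a (chr17:34972193-34972320, minus strand), whose 250 upstream bases match those of Hspa1b at 247 positions. The Hspe1 stretch (chr1:55088053-55088082, plus strand) holds 3 overlapping pairs, and the same bases, read on the minus strand, lie before a start site of Hspd1. Pairs joined into 3 alternating units were found in 2 of the 7 genes, Hspd1 and Hspe1, and in 0.514% of all genes with a window. The Dnaja1 stretch (chr4:40722333-40722362, plus strand) and the Hsph1 stretch (chr5:149636351-149636380, minus strand) each hold 1 pair. The Hspe1, Dnaja1 and Hsph1 stretches overlap annotated exons, so they lie before the start site of the window but not outside transcribed sequence. Other windows of Dnaja1 and another window of Hspd1 had no match. These matches describe letters and are not measured binding sites.

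The libraries were alike in size and depth. The control library held 3634 cells and 15446201 UMIs (unique molecular identifiers, each counting 1 captured transcript), and the rescued library held 3390 cells and 15537656 UMIs. The median cell had 3740 UMIs in control and 3847 in rescued, and the median mitochondrial share was 9.43% and 9.06%. T cell markers (Cd3d, Cd3e, Cd3g and Cd4) were found in 99.97% of control cells and all rescued cells. The summed level of the 5 Treg markers was 2287 CPM (counts per 1000000 UMIs of the library) in control and 3586 in rescued, with Foxp3 itself at 80.9 and 468, and whether the engineered control allele lowers the Foxp3 count was not tested. Markers of B cells (5 of 6 genes used) stood at 38.9 and 50.7 CPM, of myeloid cells (5 of 6) at 169 and 203, of CD8 T or NK cells (4 of 5) at 62.6 and 42.4, and of red blood cells (4 of 4) at 0.259 and 1.87, in control and rescued respectively, and their part in the chaperone levels was not tested. The libraries shared 3 cell barcodes. With 1 library per group there is no replicate and no test, so intervals below are exact 95% intervals that cover counting error only, and genotype, mouse pool, sort and library preparation cannot be told apart.

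All 10 chaperones were lower in rescued than in control Treg cells. Their summed UMIs made up 1.12% of all UMIs in control and 0.806% in rescued. Since each UMI counts 1 transcript end, no scaling by gene length was made. The median CPM ratio, rescued over control, was -0.67 on the log2 scale, or 1.59-fold lower, whereas the median over the 9779 genes with at least 100 UMIs was 0.02. Of those genes, 45.1% were lower in rescued by any size, 2.7% at least 1.5-fold lower and 5.15% at least 1.5-fold higher. By the same 1.5-fold rule, 6 of the 10 chaperones were lower (Hspa1a, Hspa1b, Hsph1, Dnaja1, Dnajb1 and Hsp90aa1) and 0 were higher. Hspa8, Hsp90ab1, Hspd1 and Hspe1 were lower by less than 1.5-fold, with intervals that did not reach 0. The shift was not carried by a few cells: the chaperones' share of a cell's UMIs had its 5th percentile, median and 95th percentile at 0.329%, 0.984% and 2.34% in control and at 0.280%, 0.674% and 1.63% in rescued. The distributions overlapped, with 23.2% of rescued cells above the control median.

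**Figure D1:**
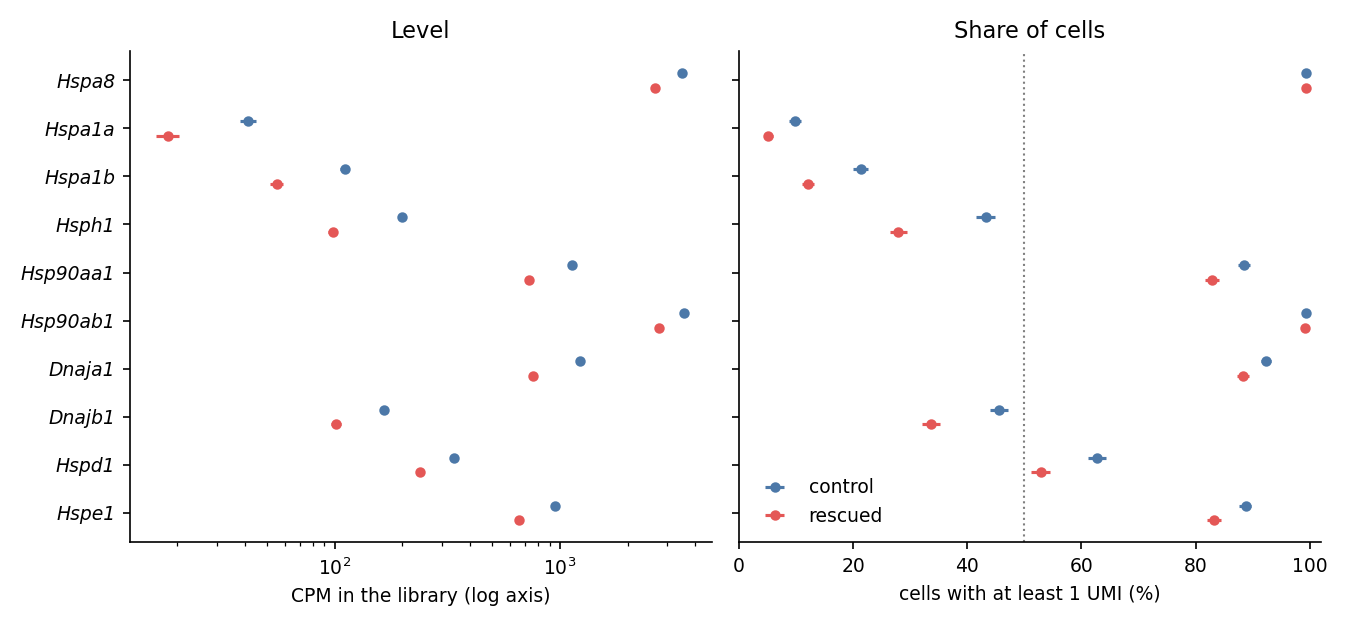
Left, CPM of the 10 chaperones in the control (blue) and rescued (red) library on a log axis; right, the share of cells with at least 1 UMI, as counted. Bars are exact 95% intervals (counting error only), many smaller than the points, and the dotted line marks 50% of cells. Every rescued level lies left of its control level, and Hspa1a, Hspa1b, Hsph1 and Dnajb1 lie under 50% of cells in both libraries.

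Among the HSP70 genes, the stress-inducible members stood farthest apart between the libraries. Hspa8 (ENSMUSG00000015656, chr9:40800984-40810087), the constitutive cytosolic HSP70, had 54067 UMIs in control (exact Poisson interval 53612 to 54525) and 41071 in rescued (40675 to 41470). That is 3500 and 2643 CPM, a log2 ratio of -0.41 (interval -0.42 to -0.39). It was found in 99.4% of cells of each library, so its difference lay in the amount per cell, with a median of 13 UMIs per control cell and 9 per rescued cell.

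Hspa1a (ENSMUSG00000091971, chr17:34969190-34972156) and Hspa1b (ENSMUSG00000090877, chr17:34956436-34959238) encode near-identical inducible HSP70 proteins from neighbouring genes. Hspa1a had 638 UMIs in control (589 to 689) and 283 in rescued (251 to 318), a log2 ratio of -1.18 (-1.39 to -0.98). Hspa1b had 1711 UMIs in control (1631 to 1794) and 860 in rescued (803 to 919), a log2 ratio of -1.0 (-1.12 to -0.88). Both genes thus stood at about the same ratio, 2.27-fold and 2.0-fold lower in rescued, and only 66 and 96 of the 9779 genes had a lower ratio than theirs. In the GENCODE transcripts, 67.5% of the 31-base words of Hspa1b also occur in Hspa1a, but 0% of those in its last 400 bases do, which is the end that the 3' assay reads. Because reads farther upstream could be split between them, their sum was also taken, and it gave -1.05 (-1.15 to -0.95).

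Hsph1 (ENSMUSG00000029657, chr5:149614287-149636376), a large HSP70 relative that acts as nucleotide exchange factor, had 3069 UMIs in control (2961 to 3180) and 1522 in rescued (1446 to 1600). Its log2 ratio was -1.02 (-1.11 to -0.93), close to that of the Hspa1 genes and well below that of Hspa8.

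The J-domain proteins, which bring clients to HSP70 and trigger its ATPase, were lower to a like degree. Dnaja1 (ENSMUSG00000028410, chr4:40722150-40737149) had 18935 UMIs in control (18666 to 19207) and 11756 in rescued (11544 to 11971), a log2 ratio of -0.70 (-0.73 to -0.66). Dnajb1 (ENSMUSG00000005483, chr8:83608193-83612653), a J-domain protein known as heat inducible, had 2567 UMIs in control (2469 to 2668) and 1583 in rescued (1506 to 1663), a log2 ratio of -0.71 (-0.80 to -0.62). The intervals of the J-domain pair overlapped, although Dnaja1 was found in most cells and Dnajb1 in a minority.

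The cytosolic HSP90 proteins, which mature kinases and steroid receptors, differed from each other in the size of the shift. Hsp90aa1 (ENSMUSG00000021270, chr12:110690605-110702728), the inducible form, had 17550 UMIs in control (17291 to 17812) and 11355 in rescued (11147 to 11566), a log2 ratio of -0.64 (-0.67 to -0.60). Hsp90ab1 (ENSMUSG00000023944, chr17:45567775-45573271), the constitutive form, had 55156 UMIs in control (54697 to 55618) and 42803 in rescued (42398 to 43210), a log2 ratio of -0.37 (-0.39 to -0.36). Hsp90ab1 thus had the ratio closest to 0 of the 10 genes, and its interval did not overlap that of Hsp90aa1.

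The mitochondrial chaperonin Hspd1 (HSP60) and its lid Hspe1 (HSP10) are encoded head to head and overlap at their 5' ends on opposite strands. Hspd1 (ENSMUSG00000025980, chr1:55077835-55088243) had 5255 UMIs in control (5114 to 5399) and 3726 in rescued (3607 to 3848), a log2 ratio of -0.50 (-0.57 to -0.44). Hspe1 (ENSMUSG00000073676, chr1:55088132-55091307) had 14659 UMIs in control (14423 to 14898) and 10211 in rescued (10014 to 10411), a log2 ratio of -0.53 (-0.57 to -0.49). The chaperonin and its lid did not differ beyond their counting intervals.

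**Figure D2:**
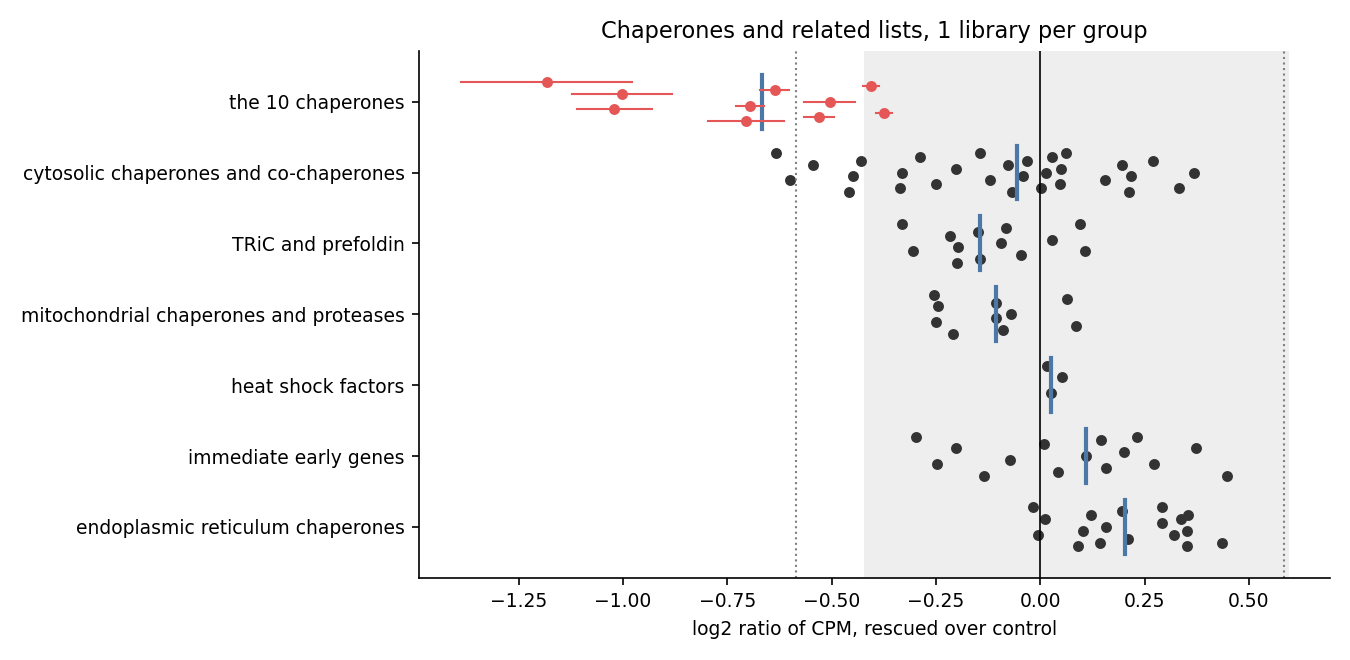
Log2 ratio of CPM, rescued over control, for the 10 chaperones (red, with exact 95% intervals) and for genes of 6 related lists with at least 100 UMIs (black, 1 point per gene, spread vertically for legibility). Blue bars are list medians, the grey band spans the 5th to 95th percentile of all 9779 genes (-0.42 to 0.59), and dotted lines mark 1.5-fold. The 10 chaperones lie left of 0, with a median of -0.67, and the endoplasmic reticulum list lies mostly right of it, with a median of 0.20.

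The share of cells with a UMI split the 10 genes into groups. As counted, Hspa1a was found in 9.77% of control cells (exact binomial interval 8.82% to 10.8%) and 5.10% of rescued cells (4.39% to 5.90%), and Hspa1b in 21.3% (19.95% to 22.6%) and 12.0% (10.9% to 13.1%). Dnajb1 was found in 45.5% (43.9% to 47.2%) and 33.7% (32.1% to 35.3%), and Hsph1 in 43.2% (41.6% to 44.8%) and 27.9% (26.4% to 29.4%). These 4 were under 50% in both libraries.

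Hspd1 came next, in 62.8% (61.2% to 64.4%) of control and 52.8% (51.1% to 54.5%) of rescued cells, just above the 50% limit. Hsp90aa1 (88.4% and 82.9%), Hspe1 (88.8% and 83.2%) and Dnaja1 (92.4% and 88.3%) followed, and Hsp90ab1 (99.4% and 99.1%) and Hspa8 were found in nearly all cells. With every cell thinned to 1000 UMIs, which left out 0 cells, the shares ranged from 3.82% for Hspa1a to 92.6% for Hspa8 in control and from 1.95% to 87.0% in rescued, and each of the 10 chaperones was found in fewer rescued than control cells. As counted this held for 9 of them, since Hspa8 stood at 99.39% of control and 99.41% of rescued cells. Free RNA can add UMIs to cells that do not express a gene, and the sort held no cell type known to lack these genes against which to set the low shares.

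Cells with Hspa1a often also had Hspa1b. Of the control cells with an Hspa1a UMI, 53.0% had an Hspa1b UMI, against 21.3% of all control cells. In rescued cells these shares were 45.7% and 12.0%. These are shares as counted, and deeper cells can hold a UMI of both genes more often, which was not adjusted for. The top 1% of cells held 29.6% of all Hspa1a UMIs in control and 39.9% in rescued, but 5.74% and 6.88% of Hspa8 UMIs. At 1000 UMIs per cell the variance over the mean was 1.72 for Hspa1b in both libraries, a value of 1 being what counting alone gives, and 1.07 and 1.19 for Dnajb1. Hspa1a had 1.42 and 1.29, and Hspa8, found in nearly all cells, had 1.72 and 1.57. Both this measure and the top 1% share depend on the mean count, which was 0.124 for Hspa1b and 3.45 for Hspa8 in control. The like values of Hspa1b and Hspa8 therefore do not show a like spread over cells. For Hspa1b, the top 1% of cells held 16.8% of its UMIs in control and 24.0% in rescued. The Dnajb1 values lay near 1, but at mean counts of 0.171 and 0.0982 they cannot show how evenly its UMIs were spread.

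Co-detection with Fos did not set the low-share members apart from the others. Fos encodes a subunit of the AP-1 factor and is an immediate early gene that tissue handling is known to induce. It had 349 UMIs in control and 479 in rescued, a log2 ratio of 0.45 (0.25 to 0.65), so it differed in the opposite direction to the chaperones. At 1000 UMIs per cell, 83 control cells and 85 rescued cells had a Fos UMI. Of 11 other immediate early genes with at least 100 thinned UMIs in each library, 6 were higher and 5 lower in control cells with Fos, and all 11 were higher in rescued cells with Fos. Egr1, Zfp36 and Dusp1 were at least 1.5-fold higher in both libraries, with Egr1 highest at log2 ratios of 2.17 in control and 2.49 in rescued. Fosb, the AP-1 relative, stood at 2.30 and 2.99 from 6 and 9 UMIs, whereas Jun stood at -0.13 and 0.57 and Ier5 at -0.37 and 0.45. Over the 10 chaperones the median of this ratio was -0.03 in control and -0.03 in rescued, with 5 genes above and 5 below 0 in each library, and over all 5022 genes compared the medians were -0.03 and -0.03.

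Hspa1a had 3 UMIs in the control cells with Fos, a log2 ratio of -0.37 (-2.66 to 1.20), and 1 UMI in the rescued cells with Fos, a ratio of -0.95 (-6.27 to 1.57). Hspa1b had 12 and 6 UMIs in these cells, with ratios of 0.22 (-0.74 to 1.04) and 0.05 (-1.41 to 1.20). Neither Hspa1 gene was detectably more abundant in cells with Fos at this depth. Hspa8 stood at -0.15 (-0.33 to 0.03) and 0.02 (-0.18 to 0.22), a narrow interval around no difference.

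In the thinned counts 2 genes had intervals above 0. Hsp90aa1 had one in rescued cells only, at 0.38 (0.04 to 0.71), against -0.17 (-0.49 to 0.14) in control, and it did not keep its sign with all UMIs of a cell, at -0.090 in rescued. Dnajb1 had one in both libraries, with 25 UMIs in the 83 control cells with Fos, a log2 ratio of 0.85 (0.21 to 1.42), and 18 UMIs in the 85 rescued cells with Fos, a ratio of 1.15 (0.38 to 1.84). With a UMI in under 50% of cells as well, it was the 1 gene of 10 that met the definition of stress-induced used here, at least 1.5-fold higher with Fos in both libraries and found in under 50% of cells. That call rested on the random draw: with all UMIs of a cell the ratios were 0.11 and 0.26, from 254 control and 293 rescued cells with Fos, and a second random thinning gave 0.17 and 0.47. Of all genes compared, 2.17% were at least 1.5-fold higher with Fos in both libraries. Hspa1a, Hspa1b and Hsph1 met the share limit only and were intermediate, and Hspa8, Hsp90aa1, Hsp90ab1, Dnaja1, Hspd1 and Hspe1 met neither limit and were constitutive by the definition. Hspd1 in rescued cells (52.8%) lay just outside the share limit and Dnajb1 in control cells (45.5%) just inside it.

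**Figure D3:**
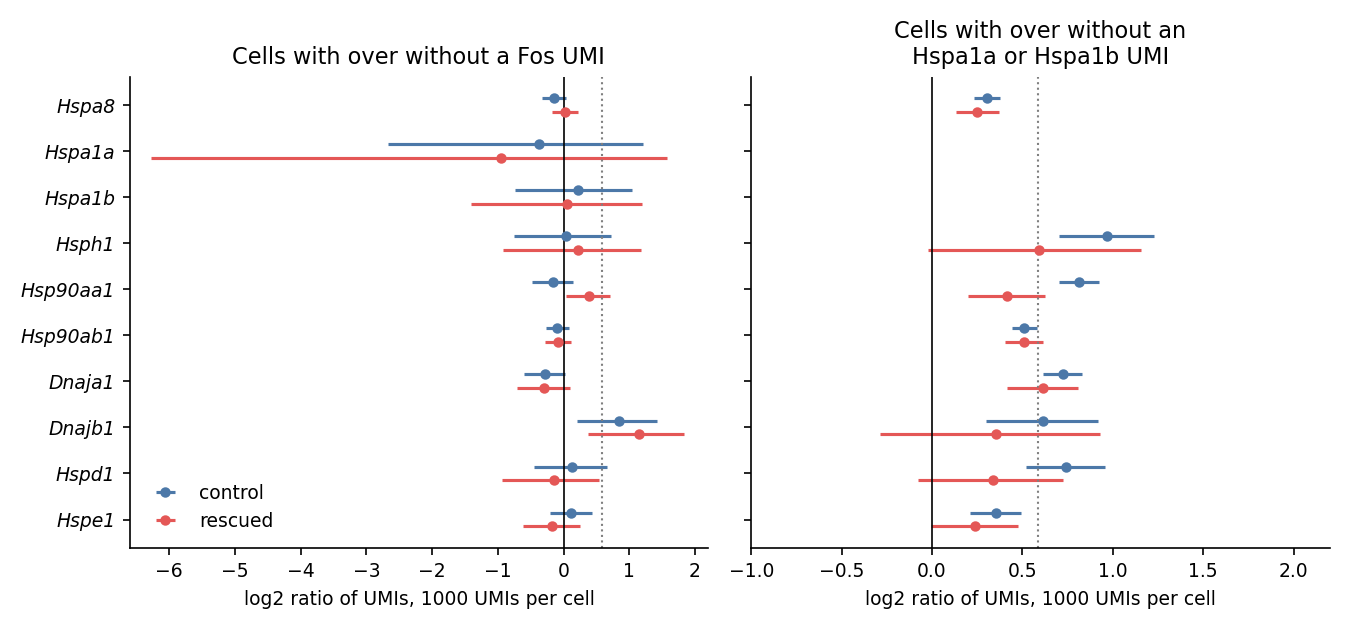
Log2 ratio of chaperone UMIs in cells with over cells without a Fos UMI (left) and with over without an Hspa1a or Hspa1b UMI (right), at 1000 UMIs per cell, in control (blue) and rescued (red) cells. Bars are exact 95% intervals (counting error only), the dotted line marks 1.5-fold, and the x axes differ in range. On the left, only Dnajb1 lies at least 1.5-fold higher, in both libraries, and Hspa1a in rescued lies at least 1.5-fold lower on 1 UMI, whereas all 8 genes shown on the right lie above 0 in both libraries.

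Detection of the inducible HSP70 genes themselves went with the other chaperones, a split chosen after the Fos values were seen. At 1000 UMIs per cell, 432 control cells (11.9%) and 211 rescued cells (6.22%) had an Hspa1a or Hspa1b UMI. In control, all 8 other chaperones were higher in these cells, with intervals above 0, and 5 were at least 1.5-fold higher. Hsph1 had the highest ratio, 0.97 (0.70 to 1.23), followed by Hsp90aa1 at 0.81 (0.70 to 0.92), while Hspa8 had the lowest at 0.30 (0.23 to 0.38). In rescued, all 8 were again higher, 4 of them with intervals above 0, led by Dnaja1 at 0.61 (0.42 to 0.81).

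The cells with an Hspa1 UMI were slightly shallower as counted, with medians of 3453 against 3772 UMIs in control, and had about the same mitochondrial share, 9.32% against 9.46%. Cells without an Hspa1 UMI still differed between the libraries. In them all 8 other chaperones were lower in rescued, with a median log2 ratio of -0.57 and a range from -1.03 for Hsph1 to -0.37 for Hsp90ab1. In cells with an Hspa1 UMI the median was -0.83, and all 8 were again lower.

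Over cells, the abundant members varied together and r with Fos was near 0. Pearson's r of log counts per 10000 was 0.58 between Hsp90aa1 and Hsp90ab1 in the 3634 control cells and 0.42 in the 3390 rescued cells, and 0.55 and 0.46 between Hspa8 and Hsp90ab1. Hspa1a and Hspa1b correlated with each other at 0.30 and 0.27. For Fos, r with the 10 chaperones lay between -0.04 and 0.04 in both libraries. Cells of a library share their preparation and differ in depth, and sparse counts hold r down, so these values are descriptions, and r near 0 for genes with few UMIs is no finding.

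**Figure D4:**
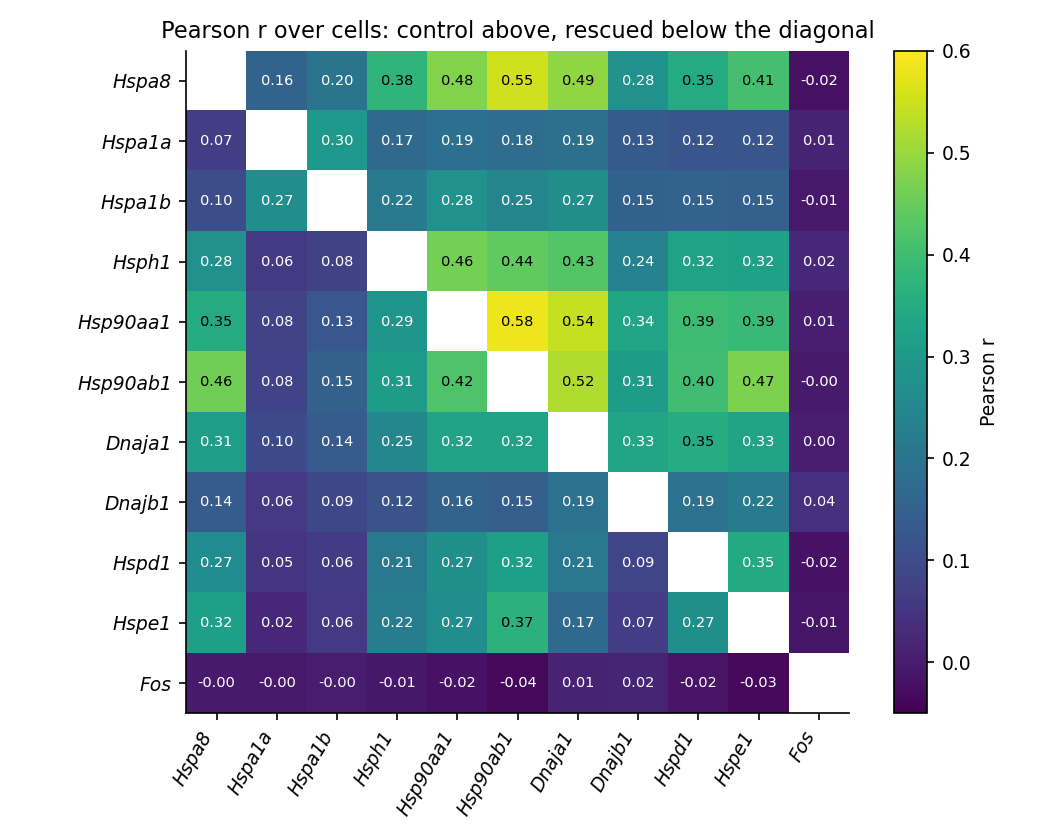
Pearson's r over cells between the 10 chaperones and Fos, from the log of counts per 10000 plus 1, with the 3634 control cells above and the 3390 rescued cells below the diagonal. Both axes list genes, and the colour and the printed number give r. The highest values in control join Hsp90aa1, Hsp90ab1, Hspa8 and Dnaja1, in rescued Hspe1 with Hsp90ab1 (0.37) exceeds every value of Dnaja1, and the Fos row and column lie near 0.

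Likeness over cells was ranked for Hspa8, Hsp90ab1, the summed Hspa1 genes and the summed mitochondrial pair, and most of the leading genes were other chaperones. Among 7414 genes found in at least 5% of cells of each library, the 5 with the highest r to Hspa8 (taking the lower of both libraries) were Hsp90ab1 (0.46), Hsp90aa1 (0.35), Hspe1 (0.32), Dnaja1 (0.31) and Hsph1 (0.28). For Hsp90ab1 they were Hspa8 (0.46), Hsp90aa1 (0.42), Hspe1 (0.37), Dnaja1 (0.32) and Hspd1 (0.32). For the summed Hspa1 genes they were Hsp90ab1 (0.16), Dnaja1 (0.15), Hsp90aa1 (0.14), Rsrp1 (0.13) and Hspa8 (0.11), all low values from sparse counts. For summed Hspd1 and Hspe1 they were Hsp90ab1 (0.41), Hspa8 (0.34) and Hsp90aa1 (0.31), then Nme1 (0.28), a nucleoside diphosphate kinase, and Npm1 (0.25), a nucleolar protein of ribosome assembly. Nme1 and Npm1 themselves had log2 ratios of 0.00 and -0.38 between the libraries.

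The lower level in rescued cells recurred across cell states. Cells were grouped into 12 numbered clusters without using chaperone or immediate early genes, and 11 of them held at least 50 cells of each library, 95.5% of all cells. In these, all 110 pairs of a chaperone and a cluster were lower in rescued, 98 of them with an interval below 0. All 10 chaperones were lower in every one of the 11 clusters, whereas 0.931% of the 9779 genes were. Hspa8, Hsp90aa1, Hsp90ab1 and Dnaja1 had intervals below 0 in all 11 clusters. Hspa1a ranged most, from -2.62 in cluster 11 (led by interferon-induced genes such as Ifit3 and Rsad2), where rescued cells had only 2 Hspa1a UMIs, to -0.29 in cluster 6 (led by Nrgn).

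**Figure D5:**
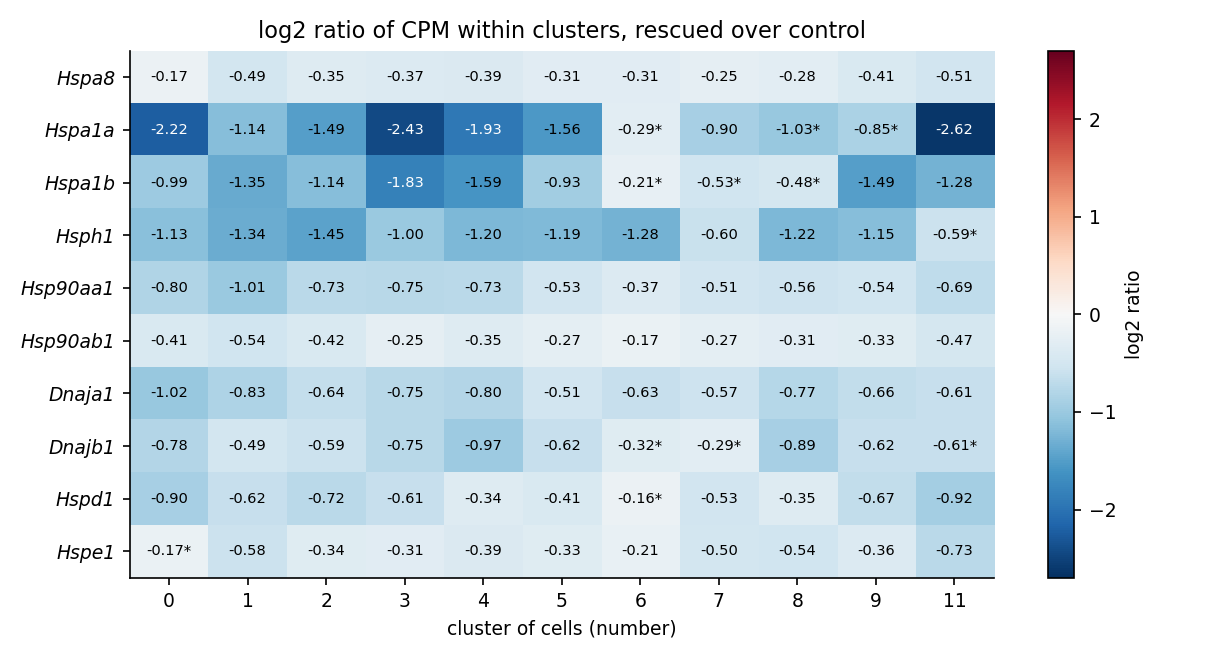
Log2 ratio of CPM, rescued over control, for each chaperone (rows) within each of 11 clusters with at least 50 cells of each library (columns, by cluster number). Blue is lower in rescued, the printed number is the ratio, and an asterisk marks an exact 95% interval that reaches 0. All 110 ratios are below 0, from -2.62 to -0.16.

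Clusters differed in chaperone level, and the members did not follow 1 pattern. Cluster 7, led by the chemokine genes Ccl1 and Ccl4 and by Bcat1, Nr4a3 and Shmt1, had the highest level of 7 chaperones in both libraries: Hspa8, Hsp90aa1, Hsp90ab1, Dnaja1, Hspd1, Hspe1 and Hsph1. In control Hspd1 ranged most among these, from 175 CPM in cluster 6 to 958 in cluster 7 in control, 5.47-fold. In rescued Hsph1 ranged most, from 44.9 to 220 CPM in the same clusters, 4.89-fold, ahead of Hspd1 at 157 to 665 CPM, 4.23-fold. Hspa1b did not follow: in control it was highest in cluster 1 at 191 CPM (253 UMIs) and stood at 59.4 in cluster 7 (61 UMIs). Hspa1a was highest in cluster 2, led by Gm43291 and Sostdc1, in both libraries, at 93.6 and 33.4 CPM. Over the 11 clusters with at least 50 cells of each library, Dnajb1 and Dnaja1 varied least in control, 1.65-fold and 1.64-fold from lowest to highest. Cluster 10, left out of these ranges because it had 16 rescued cells, stood lower in its 303 control cells, at 105 CPM for Dnajb1 and 911 for Dnaja1. Cluster 0, which held the highest Dnajb1 level in both libraries (208 and 121 CPM), was 94.5% control cells, with only 61 rescued cells.

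Cells with Myc, the growth factor-induced transcription factor, had slightly more of some constitutive members. At 1000 UMIs per cell, 216 control and 122 rescued cells had a Myc UMI. In them Hspe1 was higher by a log2 ratio of 0.40 (0.22 to 0.59) in control and 0.33 (0.02 to 0.62) in rescued, while Hspd1 stood at 0.32 (-0.01 to 0.64) and 0.56 (0.05 to 1.02). In control, Hspa8 at 0.17 (0.07 to 0.27), Hsp90aa1 at 0.26 (0.09 to 0.43) and Hsp90ab1 at 0.21 (0.11 to 0.31) also had intervals above 0, whereas their intervals in rescued included 0. None of the 10 chaperones reached 1.5-fold in either library, and Hspa1b stood at -0.24 and -0.26 with intervals that include 0. Myc itself was lower in rescued, 694 against 1168 UMIs, a log2 ratio of -0.76 (-0.90 to -0.62), and its part in the chaperone difference was not tested.

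Foxp3 and the tdTomato reporter, which marks cells whose Cre had recombined, split the cells of a library with chaperone medians slightly below 0. In cells with a Foxp3 UMI, 10 chaperones were lower in control and 9 in rescued, with 2 and 3 intervals below 0. In cells with a tdTomato UMI, 9 and 8 were lower, with 2 and 4 intervals below 0 and 0 above. In control, the median log2 ratio of the 10 chaperones in cells with over cells without a tdTomato UMI was -0.08 at 1000 UMIs per cell and -0.08 as counted, with a range of single genes from -0.21 to 0.14. In rescued it was -0.11. For Foxp3 the median was -0.16 in control (291 cells with a UMI) and -0.11 in rescued (1166 cells), and the 1 gene above 0 was Hspa1b in rescued at 0.54 (0.15 to 0.93) from 100 UMIs in cells with and 131 in cells without Foxp3, while Hspa1a stood at -0.46 (-1.26 to 0.29). When rescued cells were set against only the 2287 control cells with a tdTomato UMI as counted, the median rescued over control ratio of the chaperones was -0.63. At 1000 UMIs per cell, 27.8% of control and 30.8% of rescued cells had a tdTomato UMI. By flow cytometry, the study found labelled cells far more frequent among rescued than among control Treg cells at this age. A tdTomato UMI thus does not pick out the long-lived control cells, and this comparison was not matched for cell age. Mki67, a marker of cycling cells, was found at 1000 UMIs in only 19 control and 36 rescued cells, and no chaperone with UMIs in both sets of cells had an interval that excluded 0 (Hspa1b in control and Hspa1a in rescued had 0 UMIs in cells with Mki67).

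Other folding genes, listed by compartment, shared the shift only in part. Of 30 cytosolic chaperones and co-chaperones with at least 100 UMIs, 17 were lower and 13 higher in rescued, with a median of -0.05. Intervals lay below 0 for 12 and above 0 for 6, and 2 genes were at least 1.5-fold lower. These were Stip1 (3227 and 2092 UMIs in control and rescued, -0.63), which bridges HSP70 and HSP90, and Cacybp (4748 and 3150 UMIs, -0.60), a binding partner of a Siah ubiquitin ligase. The highest were Hspa13 at 0.37 and Bag3, an HSP70 exchange factor, at 0.33. Other HSP90 partners of the list, named after their values were seen, went both ways, with more lower than higher. Ahsa1, which stimulates the HSP90 ATPase, stood at -0.55, the immunophilin Fkbp4 at -0.46 and Chordc1 at -0.45. Ptges3 at -0.29 (-0.36 to -0.22) and Ppid at -0.25 (-0.36 to -0.14) were also lower. The kinase-specific partner Cdc37 stood at -0.03, the immunophilin Fkbp5 at 0.27 (0.14 to 0.40) and the myosin co-chaperone Unc45a at 0.21 (0.06 to 0.37).

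Of 13 TRiC and prefoldin genes, which fold actin and tubulin, 10 were lower, 9 with an interval below 0, and the median was -0.15. No interval lay above 0, and 0 genes passed 1.5-fold. Cct4 (-0.33) and Cct5 (-0.30) were lowest, and Pfdn4 (0.11) and Pfdn1 (0.09) highest. Of 10 mitochondrial chaperones and proteases other than Hspd1 and Hspe1, 8 were lower, 6 with an interval below 0, and the median was -0.11. Again no interval lay above 0. Dnaja3 (-0.25) and Phb (-0.25) were lowest and the protease genes Lonp1 (0.09) and Clpx (0.06) highest, so no other gene of this compartment reached the ratio of Hspd1 or Hspe1.

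Endoplasmic reticulum chaperones stood in the opposite direction. Of 18, 16 were higher in rescued, 13 with an interval above 0, and the median was 0.20, with 0 past 1.5-fold. Compared within clusters, the median was 0.099. Sdf2l1 (501 and 682 UMIs, 0.44) and Creld2 (378 and 486 UMIs, 0.35), both known as targets of the unfolded protein response, were highest, and Herpud1 (-0.02) and Dnajc3 (-0.01) lowest. The HSP70 and HSP90 of this compartment, Hspa5 and Hsp90b1, stood at 0.35 and 0.34, opposite in sign to their cytosolic relatives Hspa8 and Hsp90ab1. The heat shock factors Hsf1 (457 and 468 UMIs, 0.03) and Hsf2 (92 and 96 UMIs, 0.05) and the factor-binding Hsbp1 (0.02) were near 0, with intervals that include 0. Of 15 immediate early genes with at least 100 UMIs, 10 were higher and 5 lower in rescued, with a median of 0.11; Fos (0.45) and Nr4a1 (0.37) were highest and Klf6 (-0.30) and Dusp1 (-0.25) lowest, and Jun stood at -0.07.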

How the data were processed

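Single-cell libraries of doubly sorted Treg cells were made by the authors with the 10x Genomics Chromium 3' kit, and per the submitters' processing notes they used Cell Ranger 3.0 and Seurat 3.1.5 on GRCm38 with the tdTomato sequence added. The deposited table holds raw UMI counts of 7024 cells and 16098 genes, as many cells as the study states. A second table, normalized by the authors, was not used. The study's limit of 5% mitochondrial transcripts would leave 165 cells by the 13 mitochondrial genes of the count table, which holds 0 genes named Rpl or Rps, so its totals are not those of all transcripts. Cells were assigned to groups by the prefixes of their names and the sample labels.

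UMIs were summed per library or group of cells and given as counts per 1000000 UMIs (CPM). Ratios have conditional exact intervals, counts exact Poisson intervals and shares Clopper-Pearson intervals, all at 95% and covering counting error only. For splits by a gene's UMIs, counts were drawn at random, without replacement, down to 1000 UMIs per cell. A gene was called past the fold at 1.5-fold with at least 100 UMIs. Named genes were the 10 chaperones, the 2 highest and 2 lowest of each list, and the 5 genes with the highest r. Clusters came from scanpy 1.11.5 (2000 variable genes, 30 components, 15 neighbours, Leiden resolution 1), without chaperone, immediate early or mitochondrial genes. Scrublet called 2 control and 1 rescued cell as doublets, too few to have worked, so cells with the 3.5% highest scores were left out as an alternative. The ratio and thinning steps were tested on simulated data. Promoters came from RefSeq windows (GRCm38.p6) and gene positions from GENCODE on the same build. The members and lists were chosen with earlier results of these data known. Python 3.11.15, scipy 1.17.1 and numpy 2.4.6 were used.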

Additional observations from a re-analysis of the deposited data

How the results depend on the processing

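Every value rests on 1 library per group, and no alternative removes that limit. No paired analysis was possible because a lone library stands for either arm. The rescued over control ratio of each of the 10 chaperones stayed below 0 in all 120 recalculations (12 alternatives), from -1.52 to -0.30. Their median moved beyond its counting interval to -0.74 with every cell thinned to 1000 UMIs and -0.74 with each cell weighed the same. It also moved to -0.71 without cells over 10% mitochondrial UMIs, -0.59 in cells with a Fos UMI only and -0.71 in cells of 3000 to 5000 UMIs. That depth range was chosen after seeing the data, as was the comparison with control cells holding a tdTomato UMI. The number past 1.5-fold, 6, was 5 to 7. Within clusters, the list medians were 0.099 for endoplasmic reticulum chaperones, 0.0077 for immediate early genes and -0.05 for TRiC and prefoldin. With a minimum of 20 UMIs, 5.19% of all genes were at least 1.5-fold lower and 8.11% higher.

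The Fos results depended on thinning. The number of genes classed as stress-induced, 1, became 0 with all UMIs, at 2000 UMIs per cell, with another random seed, with 2 or more Fos UMIs, with Jun or Fosb in place of Fos, with a 2-fold limit and with a share limit of 25%. With 2 or more Fos UMIs the rescued median was -0.68 (11 cells). The splits by other immediate early genes disagreed in control. By Jun (947 cells), 9 of 10 chaperones were higher, 4 with intervals above 0. By Fosb (51 cells), 9 were lower, 4 with intervals below 0. In rescued, 3 were higher and 7 lower by Jun, with 1 interval below 0, and 7 were higher and 3 lower by Fosb, with 0 intervals apart from 0. In rescued cells the ratio of Dnajb1 turned negative with 2 or more Fos UMIs (-0.11), by Jun (-0.27) and by Fosb (-0.33). That of Hsp90aa1, 0.38, became -0.090 with all UMIs, -0.081 at 2000 UMIs, -0.55 with another seed, -0.68 with 2 or more Fos UMIs, -0.11 by Jun and -0.0021 by Fosb. Depth limits these splits, with 83 and 85 cells holding a Fos UMI.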
